A study of Mus musculus with 44 samples.

Results

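The antioxidant and glutathione enzymes measured here are 48 of the 12394 genes on the arrays. They were chosen by symbol: the cytosolic, mitochondrial and microsomal glutathione S-transferases, the glutathione peroxidases, peroxiredoxins and superoxide dismutases, and 13 single genes (Cat, Gclc, Gclm, Gsr, Gss, Txn1, Txn2, Txnrd1, Txnrd2, Nqo1, Srxn1, Mt1 and Mt2), of which all were found. The symbol rule itself uses no measured value, but the members were chosen with earlier results of these data known. For the 22 members with several probe sets, the most variable one (largest SD) was used, a choice that does rest on measured values. No gene was removed for a low value, so all 48 were tested. By role they are 21 transferases, 8 glutathione peroxidases, 3 peroxiredoxins, 4 genes for dismutases and catalase, 4 genes of glutathione synthesis and reduction, 6 genes of the thioredoxin system and quinone reduction, and 2 metallothioneins. The peroxiredoxins are Prdx2, Prdx3 and Prdx4, and Prdx1 is absent because its probe sets also name another gene.

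RNA came from the left ventricle of 44 mice, 1 array per mouse. The 12 PKCε FG-3149 mice (6 female) and the 10 PKCε IgG mice (5 female) carried a constitutively active (A159E) rabbit PKCε whose expression in cardiomyocytes came from the mouse Myh6 promoter, a model of dilated cardiomyopathy. The 12 FVB FG-3149 mice (6 female) and the 10 FVB IgG mice (7 female) were nontransgenic FVB/N, the background strain of the transgene. FG-3149 is an antibody that binds CTGF, the secreted matricellular protein encoded by Ccn2, and IgG is nonimmune mouse immunoglobulin. Both were injected intraperitoneally at 30 mg/kg, 2 times per week, starting when the mice were 3 months old and lasting 3 months, so the ventricles were 6 months old. Every mouse therefore received an immunoglobulin, and no untreated group entered the comparisons. The design asks what the transgene changes under each antibody, what FG-3149 changes in each line, and whether the antibody effect differs between the lines.

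Glutathione is a small thiol made in the cytosol by glutamate-cysteine ligase and glutathione synthetase. Transferases couple it to electrophiles such as the aldehydes left by lipid oxidation, and glutathione peroxidases use it to reduce peroxides. Superoxide dismutases turn superoxide into hydrogen peroxide, which catalase, the glutathione peroxidases and the peroxiredoxins then remove, the peroxiredoxins with electrons from thioredoxin and its reductase. Metallothioneins are small cysteine-rich proteins that bind zinc and copper. Many of these genes are known targets of NRF2, a transcription factor that binds antioxidant response elements, and metallothionein genes are known targets of the zinc-sensing factor MTF1 and of the glucocorticoid receptor. In heart muscle, mitochondria are the main source of superoxide and hold their own dismutase, peroxiredoxin, thioredoxin and thioredoxin reductase.

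Each value is the log2 of a probe set's ratio to its own median over the 44 arrays, so 0 is the usual level of that gene, 1 is a doubling, and levels cannot be compared between genes. Differences are log2 fold changes with their standard error (SE) from limma, and a gene was called at a Benjamini-Hochberg adjusted p under 0.05 over all 12394 genes. The labels were checked first. Myh7, the slow myosin heavy chain of stressed ventricle, was 3.22 ± 0.13 higher in PKCε IgG ventricles, with FVB IgG ventricles as the base (adjusted p = 5.05e-22). Prkce was 0.49 ± 0.15 higher (adjusted p = 0.00596), although its probes were made for the mouse gene and the transgene is from rabbit. Ccn2 was 0.74 ± 0.23 higher (adjusted p = 0.00756). Some arrays stood apart. In 10 of them (2 PKCε FG-3149, 2 PKCε IgG, 1 FVB FG-3149 and 5 FVB IgG) the mean log2 ratio of the atrial genes Sln, Myl7 and Myl4 was above 4. In 2 PKCε IgG arrays (replicates 9 and 10) the lung genes Sftpc and Scgb1a1 were both above 3. Only these are called high-lung below. Scgb1a1 without Sftpc was above 3 in arrays of the other groups too. It reached 9.36 in FVB IgG replicate 4, 5.17 in FVB FG-3149 replicate 6 and 4.74 in PKCε FG-3149 replicate 7. Such arrays stayed in the fits without the high-lung arrays. The Y-linked gene Uty had a log2 ratio of 3.63 in FVB FG-3149 replicate 11, a mouse labelled female, against at most 0.02 in the other females and at least 3.78 in males. The mean of 7 adipocyte markers was -0.16, -0.19 and -0.15 in PKCε FG-3149, PKCε IgG and FVB FG-3149 ventricles and 1.40 ± 1.32 (SD) in FVB IgG ventricles, where single arrays ran from -0.74 to 3.75. The 3' minus 5' difference of the Gapdh control probe sets, a sign of RNA integrity, averaged 0.04 in PKCε FG-3149, 0.30 in PKCε IgG, -0.13 in FVB FG-3149 and -0.04 in FVB IgG arrays. For the beta-actin control probe sets the same difference averaged -0.05, 0.09, -0.06 and 0.10 in that order. It was thus similar in the IgG groups, and it was not used as a covariate.

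The transgene was set against its background strain under IgG first. In PKCε IgG ventricles 21 of the 48 genes fell and 4 rose relative to FVB IgG ventricles. These 25 calls are 52.1% of the set, beside 42.2% of all genes tested. In the lower direction, 21.5% of all genes were called, and in the higher direction 20.7%. The median difference over the 48 genes was -0.18, beside -0.05 over all genes, and the median size without sign was 0.27, beside 0.16. The genes that fell were 13 transferases, both metallothioneins, 2 peroxiredoxins, Sod2 and 3 genes of the thioredoxin system, and all 4 genes that rose were glutathione peroxidases. In 5 genes (Gsta4, Gstk1, Gstm1, Gstm2 and Gstm7) every PKCε IgG array was below every FVB IgG array, and in none was every PKCε IgG array above. Arrays of the groups did not overlap in 4.38% of all genes (2.66% above and 1.72% below). The tissue is a mixture, so fewer cells of a type and less RNA per cell cannot be told apart in any of these values.

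**Figure D1:**
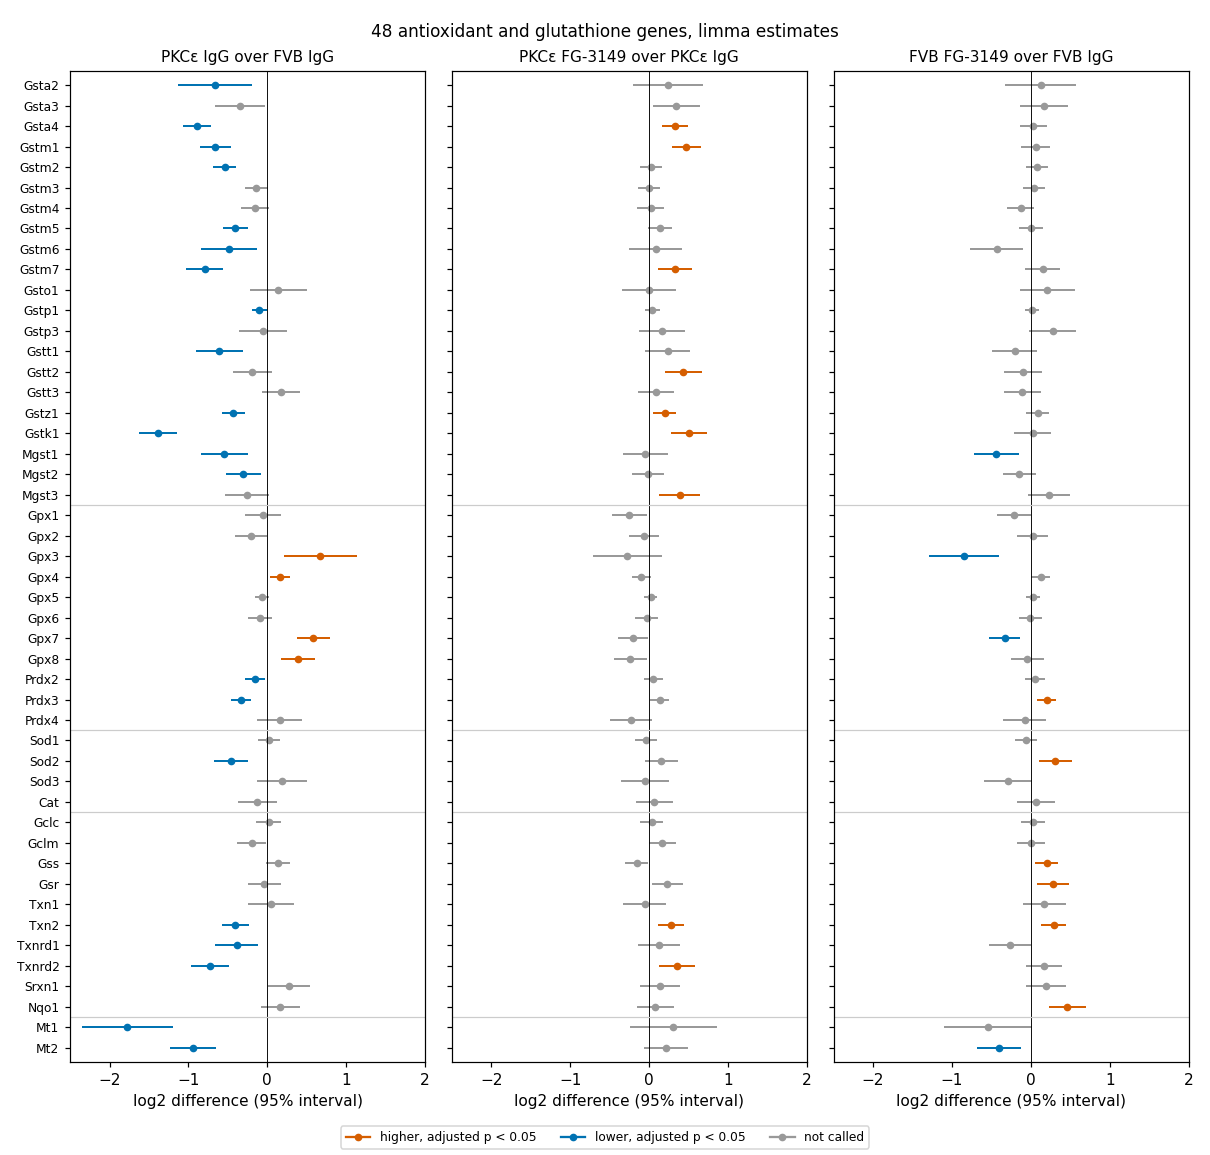
Log2 fold change of each of the 48 genes with its 95% confidence interval, for PKCε IgG over FVB IgG (left), PKCε FG-3149 over PKCε IgG (middle) and FVB FG-3149 over FVB IgG (right); genes are grouped by role and colour marks the calls at an adjusted p under 0.05. In the left panel 21 genes lie below 0 and 4 above among those called, in the middle panel all 9 called genes lie above 0, and in the right panel 6 lie above and 4 below.

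Glutathione S-transferases made up most of the decrease: 13 of 21 fell and none rose, with a median of -0.41 over the class. The largest difference was that of Gstk1, the kappa-class enzyme of mitochondria and peroxisomes. Its log2 ratios ran from -1.80 to -0.48 (median -0.93) in PKCε IgG ventricles, against 0.04 to 0.69 (median 0.38) in FVB IgG ventricles, with no overlap. The log2 fold change was -1.39 ± 0.11, adjusted p = 6.24e-13, a level 2.61-fold lower. Gsta4, the alpha-class enzyme that conjugates 4-hydroxynonenal from oxidised lipids, ran from -1.08 to -0.18 (median -0.64) in PKCε IgG, against -0.06 to 0.43 (median 0.23) in FVB IgG ventricles, again without overlap (-0.89 ± 0.08, adjusted p = 8.64e-12). The other alpha-class gene that fell was Gsta2, at -0.67 ± 0.23, adjusted p = 0.0164, while Gsta3 at -0.34 ± 0.15 did not pass the test (adjusted p = 0.0601).

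The mu class, soluble enzymes encoded by a cluster of near-identical genes, had 5 of 7 members lower. Gstm7 ran from -1.05 to -0.15 (median -0.46) in PKCε IgG, against -0.03 to 0.56 (median 0.22) in FVB IgG ventricles (-0.80 ± 0.11, adjusted p = 8.88e-08). Gstm1 ran from -0.74 to -0.42 (median -0.55) in PKCε IgG arrays, against -0.31 to 0.57 (median 0.09) in FVB IgG arrays (-0.66 ± 0.09, adjusted p = 7.84e-08), and Gstm2 from -0.53 to -0.01 (median -0.38) in PKCε IgG arrays, against 0.01 to 0.67 (median 0.21) in FVB IgG arrays (-0.54 ± 0.07, adjusted p = 7.70e-09). All 3 separated the groups completely. Gstm6 and Gstm5 fell by 0.49 and 0.41 on the log2 scale, and Gstm3 and Gstm4, at -0.14 and -0.15, did not pass. Probes for 1 mu-class gene can bind the RNA of another, and the probe sets used for Gstm1 and Gstm3 are of types that the array design marks as shared, so which of these genes differ is uncertain. A second Gstm7 probe set gave -0.07, and 3 further Gstm1 probe sets gave -0.45, -0.61 and -0.63.

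Among the remaining transferases, Gstt1 of the theta class fell (-0.61 ± 0.14, adjusted p = 5.91e-04), as did Gstz1, which also degrades tyrosine as maleylacetoacetate isomerase (-0.43 ± 0.07, adjusted p = 1.13e-06). Of the membrane-bound microsomal enzymes, Mgst1 (-0.55 ± 0.14, adjusted p = 0.00179) and Mgst2 (-0.30 ± 0.10, adjusted p = 0.0149) fell, and Mgst3 at -0.26 ± 0.13 did not pass. The pi-class Gstp1 was called at -0.10 (adjusted p = 0.0352), and leaving out any 1 of 8 arrays ended that call. Adipocyte markers, higher in FVB IgG arrays, moved with Gstt1, Mgst1 and Gstm6. With the adipocyte marker mean as a covariate these 3 were -0.30, -0.16 and -0.22, while Gstk1 was -1.18 and Gsta4 -0.74. A second Mgst1 probe set gave -0.09. Without the high-atrial arrays Mgst2 was -0.13 (adjusted p = 0.424) and no longer called.

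**Figure D2:**
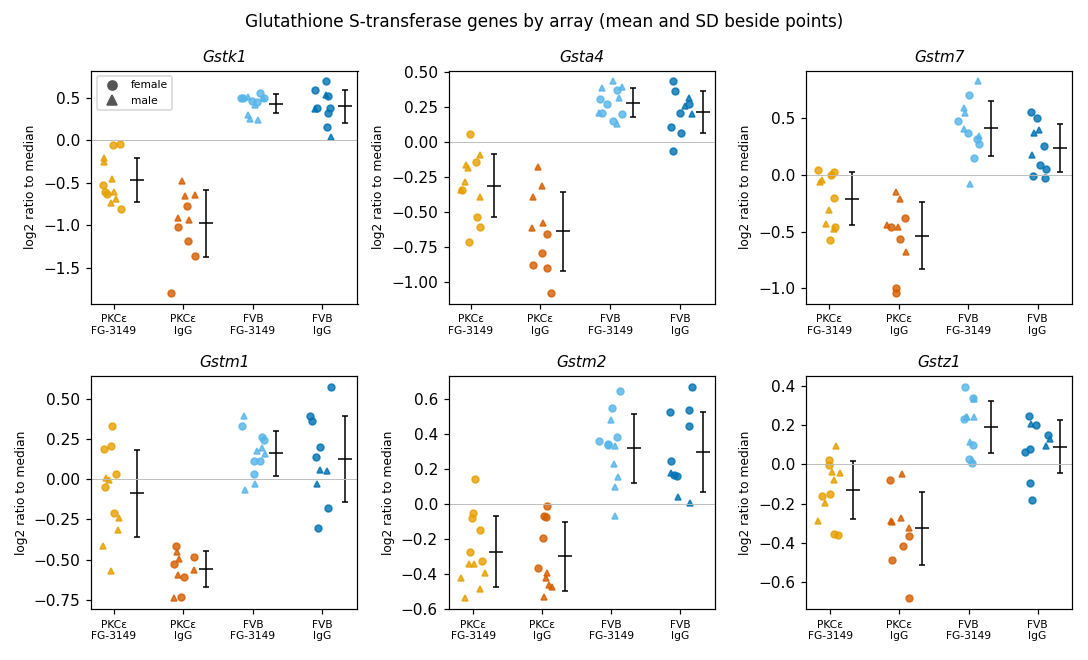
Log2 ratio of 6 glutathione S-transferases on each array, by group from left to right PKCε FG-3149, PKCε IgG, FVB FG-3149 and FVB IgG, with circles for females, triangles for males and the mean ± SD beside the points. Medians are lowest in PKCε IgG for Gstk1 (-0.93) and Gsta4 (-0.64), with the PKCε FG-3149 medians between those and the medians of both FVB groups. Arrays of the PKCε groups overlap for both genes.

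Among the glutathione peroxidases the calls ran the other way, with 4 of 8 higher and none lower, but the median over the class was only 0.06. Of those not called, Gpx2 had all 10 PKCε IgG arrays below the FVB IgG median, and Gpx5 and Gpx6 had 8 of 10 each. Gpx3, the secreted plasma enzyme, ran from 0.10 to 1.28 (median 0.55) in PKCε IgG ventricles, against -1.14 to 1.76 (median -0.43) in FVB IgG ventricles (0.67 ± 0.22, adjusted p = 0.0134). The overlap between the groups lay in the FVB IgG arrays: 4 of the 5 with high atrial genes were at 0.57, 0.83, 1.21 and 1.76 for Gpx3, while the other 6 FVB IgG arrays ran from -1.14 to -0.35. Without the 10 arrays with high atrial genes, the Gpx3 difference was 1.25 (adjusted p = 9.35e-08), and with the Gapdh difference as a covariate it was 0.55 (adjusted p = 0.123).

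Gpx7 and Gpx8 belong to a branch that works in the endoplasmic reticulum, where it supports disulfide formation. Gpx7 ran from 0.00 to 0.72 (median 0.45) in PKCε IgG, against -0.50 to 0.53 (median -0.17) in FVB IgG ventricles, and all 10 PKCε IgG arrays were above the FVB IgG median (0.58 ± 0.10, adjusted p = 3.02e-06). Gpx8 ran from -0.10 to 0.95 (median 0.18) in PKCε IgG arrays, against -0.85 to 0.65 (median -0.02) in FVB IgG arrays, with wide overlap (0.39 ± 0.10, adjusted p = 0.00215). Gpx4, which reduces lipid hydroperoxides in membranes, rose by 0.16 ± 0.06 (adjusted p = 0.0207), a call lost in 6 of 17 other settings, among them without the high-atrial arrays (0.07, adjusted p = 0.363) and in males alone (0.08, adjusted p = 0.607). Gpx1, the cytosolic and mitochondrial enzyme, was at -0.05 ± 0.11 and did not pass (adjusted p = 0.72). Fibroblast markers rose with these genes: 11 of 12 were called higher, and their mean ran from 0.15 to 1.24 in PKCε IgG, against -0.84 to 0.41 in FVB IgG arrays. Their part in the peroxidase values was not tested.

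Of the 13 genes for peroxiredoxins, dismutases, catalase, the thioredoxin system and quinone reduction, 6 fell and none rose. Txnrd2, the mitochondrial thioredoxin reductase, was at -0.72 ± 0.11, adjusted p = 1.36e-06, and its partner Txn2, mitochondrial thioredoxin, at -0.41 ± 0.08, adjusted p = 4.09e-05. Prdx3, the peroxiredoxin that Txn2 recharges, fell (-0.34 ± 0.06, adjusted p = 4.15e-06), and Sod2, the manganese dismutase of the matrix, fell (-0.46 ± 0.10, adjusted p = 2.88e-04). For these 4 genes, which work in mitochondria, every PKCε IgG array was below the FVB IgG median, although the groups overlapped. Of the cytosolic enzymes, Sod1 was at 0.02 ± 0.06 and Txn1 at 0.05 ± 0.14, neither past the test, and Prdx2 at -0.16 ± 0.06 was called (adjusted p = 0.02). The Prdx2 call was lost in 6 of 17 other settings and without PKCε IgG replicate 6. Cytosolic Txnrd1 fell by 0.39 on the log2 scale with the probe set used, its other probe sets gave -0.39 and -0.11, and its call was lost in 4 of 18 other settings (in males alone, -0.15 with adjusted p = 0.574). Extracellular Sod3, catalase (Cat), quinone reductase (Nqo1), sulfiredoxin (Srxn1) and the endoplasmic reticulum enzyme Prdx4 were not called, at 0.19, -0.13, 0.16, 0.28 and 0.15. With the Gapdh difference, higher in PKCε IgG arrays, as a covariate, Txnrd2 was -0.40 (adjusted p = 0.00435) and Txn2 -0.21 (adjusted p = 0.0446). Ventricular cardiomyocyte markers moved with these genes, with 6 of 13 lower and 1 higher, but the median over the 13 was only -0.14. Among them Myh6 fell (-1.49), while the other myosin heavy chain Myh7, not in the list, rose by 3.22. The part of the markers in these values was not tested.

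**Figure D3:**
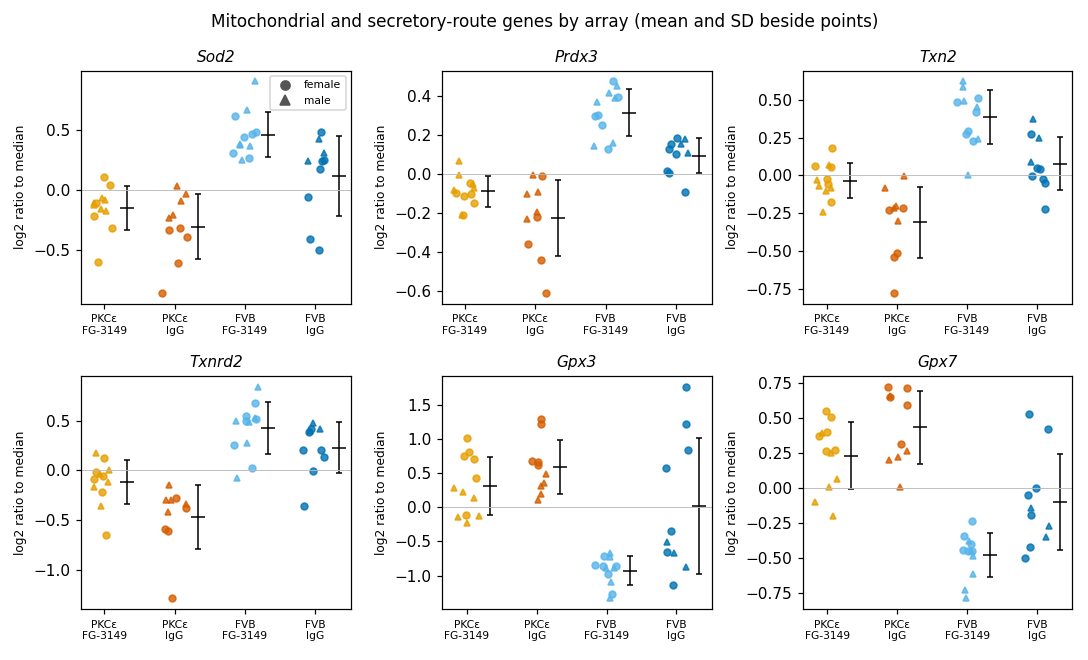
Log2 ratio of Sod2, Prdx3, Txn2, Txnrd2, Gpx3 and Gpx7 on each array, by group from left to right PKCε FG-3149, PKCε IgG, FVB FG-3149 and FVB IgG, with circles for females, triangles for males and the mean ± SD beside the points. Sod2, Prdx3, Txn2 and Txnrd2 have lower medians in both PKCε groups than in FVB FG-3149, and Gpx3 is spread from -1.14 to 1.76 in FVB IgG arrays.

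None of the 4 genes of glutathione synthesis and reduction was called between PKCε IgG and FVB IgG ventricles. At an unadjusted p under 0.05 limma passed 30 of the 48 genes in all, beside 6335 of all 12394 genes. Gclc and Gclm, the catalytic and modifier subunits of glutamate-cysteine ligase, were at 0.02 ± 0.07 and -0.20 ± 0.09 (adjusted p = 0.847 and 0.0557). Glutathione synthetase (Gss) was at 0.14 ± 0.07 and glutathione reductase (Gsr) at -0.04 ± 0.10. The 95% intervals of these 4 differences ran from -0.13 to 0.16, -0.37 to -0.03, 0.00 to 0.28 and -0.23 to 0.16.

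The metallothioneins Mt1 and Mt2 both fell, and Mt1 had the largest difference of all 48 genes. Its log2 ratios ran from -2.21 to 0.28 (median -1.49) in PKCε IgG ventricles, against -0.59 to 2.15 (median 0.96) in FVB IgG ventricles, and 6 of the 10 PKCε IgG arrays were below every FVB IgG array. The difference was -1.78 ± 0.28, adjusted p = 1.76e-06, a level 3.42-fold lower, and a second Mt1 probe set gave -0.74. Mt2 ran from -1.24 to 0.16 (median -0.30) in PKCε IgG arrays, against -0.06 to 1.18 (median 0.51) in FVB IgG arrays, with 9 of 10 PKCε IgG arrays below every FVB IgG array (-0.94 ± 0.14, adjusted p = 5.20e-07). Both genes varied by more than 1 log2 unit among the arrays of each of these groups. Of 14 genes of the glucocorticoid and acute stress response, which also drives metallothioneins, 6 fell and 1 rose, among them Klf9 (-0.49), Nfkbia (-0.46), Sgk1 (-0.54) and Sult1a1 (-0.43). Of 12 regulators of zinc and metallothioneins, 3 rose (Slc30a4 0.49, Slc39a6 0.82 and Slc39a1 0.31, all zinc transporters) and 3 fell, including the third metallothionein gene Mt3 (-0.39).

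**Figure D4:**
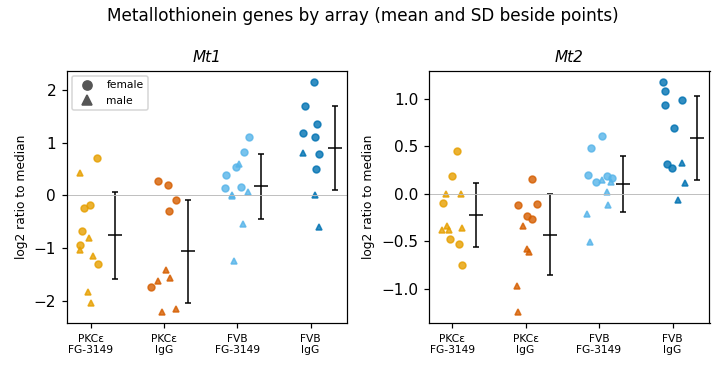
Log2 ratio of Mt1 and Mt2 on each array, by group from left to right PKCε FG-3149, PKCε IgG, FVB FG-3149 and FVB IgG, with circles for females, triangles for males and the mean ± SD beside the points. Mt1 medians are -0.87, -1.49, 0.15 and 0.96 in that order, and the female means are above the male means in every group.

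Lists of genes that work beside the 48, written with earlier results of these data known, gave the following counts in the same comparison. Of 15 genes of glutathione transport and breakdown, 8 fell and 1 rose. Those with the lowest p were 5-oxoprolinase (Oplah, -1.0), the glyoxalase Hagh (-0.53), Ggct (-0.51) and the glutathione-degrading enzyme Chac2 (-0.59). Of 17 glutaredoxins, thioredoxin partners and sulfoxide reductases, 5 fell and 4 rose, with Glrx2 (-0.64), Msrb2 (-0.76) and Msra (-0.59) lower and Txnl1 (0.39) higher. Of 24 NRF2 regulators and other NRF2 targets, 7 rose and 6 fell, with Mafk (0.55) and Cbr3 (0.63) higher and Cbr1 (-0.52) and Me1 (-0.65) lower. Of 9 genes that supply NADPH, the reductant of glutathione and thioredoxin reductases, 5 fell and 3 rose, with Idh1 (-0.55), Idh2 (-0.35) and Me1 lower and Nadk (0.40) higher. Of 12 genes of selenium handling, which Txnrd and some Gpx proteins need, 2 rose (Selenon 0.37 and Selenop 0.20) and none fell.

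Markers of cell types other than fibroblasts and cardiomyocytes were counted the same way between PKCε IgG and FVB IgG ventricles. Adipocyte markers fell in 6 of 7 cases, with Car3 at -2.22 and Adipoq at -2.25, and atrial markers in 2 of 7 with 1 higher. Of 11 macrophage markers and 10 endothelial markers, 2 each rose. Of 8 neutrophil markers 2 fell and of 8 skeletal muscle markers 1 fell. None of 4 erythroid, 8 lung and 6 liver markers was called by limma. Without the 10 arrays with high atrial genes 22 of the 48 genes were called (3 higher and 19 lower), and without the 2 arrays with high lung genes 24 (4 higher and 20 lower). Males alone gave 16 calls (3 higher and 13 lower) and females alone 21 (2 higher and 19 lower).

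Promoter sequence was read for the members because many are known NRF2 or MTF1 targets and 25 of them moved here. RefSeq promoter windows, 250 bases upstream of a transcript's start on GRCm38.p6, were matched to 43 of the 48 genes (56 windows). The core letters of the antioxidant response element, TGACNNNGC on either strand, were in the windows of 8 genes. That is 14.3% of the 56 windows, beside 10.2% of 32536 windows of the same length. The 8 matches are shown with 10 flanking bases on each side, with the core in capitals (on the opposite strand for Gclm, Mgst1, Sod1 and Txnrd1). Each is upstream of the start of the transcript whose window holds it, with the first base of the core 42 (Gstm5) to 134 (Gclm) bases away. For Gstm7 and Txnrd1 that is the start of an alternative transcript, and the stretch lies inside the gene as annotated; the other 6 lie outside their genes.

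Gclm, chr3:122245413-122245441, plus strand: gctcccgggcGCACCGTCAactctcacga
Gsta3, chr1:21240454-21240482, plus strand: aactcaggcaTGACATTGCatttttcttc
Gstm5, chr3:107895802-107895830, plus strand: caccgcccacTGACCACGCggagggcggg
Gstm7, chr3:107931725-107931753, minus strand: tctgaagaccTGACAAAGCgaagccaatc
Mgst1, chr6:138140461-138140489, plus strand: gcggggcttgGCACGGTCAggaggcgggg
Mt2, chr8:94172529-94172557, plus strand: aaagggggtgTGACTCAGCgcggggggtg
Sod1, chr16:90220696-90220724, plus strand: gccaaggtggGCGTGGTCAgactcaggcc
Txnrd1, chr10:82859104-82859132, plus strand: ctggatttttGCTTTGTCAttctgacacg

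Of these 8 genes 5 (Gstm5, Gstm7, Mgst1, Mt2 and Txnrd1) fell in PKCε IgG relative to FVB IgG ventricles and none rose, while of the 35 genes with a window and no match 15 were lower and 4 higher. Gclm, Gsta3 and Sod1 carry the letters and were not called. The Mt2 match also holds TGACTCA, letters of the AP-1 element, so the motifs overlap there. A match describes letters only.

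The metal response element core (TGCACNC or TGCGCNC, either strand), the letters that MTF1 binds, was in windows of 13 genes: 26.8% of the 56 windows, beside 21.5% of all 32536. Of the 13 genes 8 were lower and 1 higher in PKCε IgG ventricles, and of the 30 genes without a match 12 were lower and 3 higher. Mt2 had 3 matches, and at least 3 were found in 1.28% of all windows. Both metallothionein genes fell and are shown for that reason, Mt1 as the 27 bases around its match and Mt2 as its whole window, with the core in capitals. The Mt2 window is upstream of the annotated gene. The Mt1 stretch is upstream of the start of the transcript whose window holds it and lies inside the gene as annotated, which begins further upstream.

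Mt1, chr8:94179056-94179082, plus strand: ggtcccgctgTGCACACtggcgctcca
Mt2, chr8:94172368-94172617, plus strand: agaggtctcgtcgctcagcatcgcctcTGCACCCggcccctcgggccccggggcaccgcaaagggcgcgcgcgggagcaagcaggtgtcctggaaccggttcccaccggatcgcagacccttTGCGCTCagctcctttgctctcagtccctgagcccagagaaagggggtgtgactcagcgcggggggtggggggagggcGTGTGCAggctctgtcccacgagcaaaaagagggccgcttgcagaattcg

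FG-3149 was next set against IgG within the PKCε line. In PKCε FG-3149 ventricles 9 of the 48 genes rose relative to PKCε IgG ventricles and none fell: 18.8% of the set, beside 8.82% of all genes (5.08% higher and 3.74% lower). By unadjusted p under 0.05 limma passed 18 of the 48, beside 2759 of all 12394 genes. The 9 genes were 7 transferases (Gstk1, Gstm1, Gstt2, Mgst3, Gsta4, Gstm7 and Gstz1) and the mitochondrial pair Txn2 and Txnrd2. With the mean of all probe sets of each gene, 7 of the 48 were called, all higher. The median difference was 0.08 over the set and 0.02 over all genes. In none of the 48 did the arrays of the groups separate completely, which they did in 0.113% of all genes.

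Gstk1 rose most. Its log2 ratios ran from -0.80 to -0.04 (median -0.57) in PKCε FG-3149 ventricles, against -1.80 to -0.48 (median -0.93) in PKCε IgG ventricles, and all 12 PKCε FG-3149 arrays were above the PKCε IgG median (0.51 ± 0.11, adjusted p = 0.00186). Gstm1 ran from -0.57 to 0.33 (median -0.03) in PKCε FG-3149 arrays, against -0.74 to -0.42 (median -0.55) in PKCε IgG arrays, with 10 of 12 PKCε FG-3149 arrays above every PKCε IgG array (0.47 ± 0.08, adjusted p = 2.95e-04). The theta-class gene Gstt2 ran from -0.22 to 0.69 (median 0.23) in PKCε FG-3149 arrays, against -0.51 to 0.16 (median -0.09) in PKCε IgG arrays, with 8 of 12 above every PKCε IgG array (0.43 ± 0.11, adjusted p = 0.00907).

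Gsta4 rose by 0.33 ± 0.08 (adjusted p = 0.00497) and Txn2 by 0.27 ± 0.07 (adjusted p = 0.014). Mgst3 (0.39 ± 0.12), Txnrd2 (0.35 ± 0.11), Gstm7 (0.33 ± 0.10) and Gstz1 (0.20 ± 0.06) were close to the threshold, with adjusted p of 0.042, 0.0331, 0.0352 and 0.0428. Each of these 4 lost its call when 1 of 6 or more single arrays was left out. The second Gstm7 probe set gave -0.07. Under IgG, in a comparison that shares the PKCε IgG arrays, the transgene effects of the same 9 genes were -1.39 for Gstk1, -0.66 for Gstm1, -0.19 for Gstt2, -0.26 for Mgst3, -0.72 for Txnrd2, -0.89 for Gsta4, -0.80 for Gstm7, -0.41 for Txn2 and -0.43 for Gstz1. Mt1 and Mt2 were at 0.31 ± 0.27 and 0.21 ± 0.13 and did not pass (adjusted p = 0.553 and 0.377). Gpx3, Gpx7 and Gpx8 were at -0.28, -0.20 and -0.24, also not past the test.

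Several measures moved with these genes. Without the 2 PKCε IgG arrays with high lung genes, 3 calls were left, with Gstk1 at 0.36, Gstm1 at 0.44 and Gstt2 at 0.44. Without the 10 arrays with high atrial genes 5 of the 48 were called. The Gapdh 3' minus 5' difference was larger in PKCε IgG arrays, and with it as a covariate 5 were called, 4 higher (Gsta4, Gstk1, Gstm1 and Gstt2) and 1 lower that was not called otherwise, with Txn2 at 0.12 and Txnrd2 at 0.10 no longer past the test. Leaving out PKCε IgG replicate 6, 9 or 10 gave 5 calls each, beside 751, 774 and 801 of all genes. Males alone gave 0 calls and females alone 5. Of 13 ventricular cardiomyocyte markers 4 rose (Myh6 0.62, Atp2a2 0.31, Ckm 0.27 and Pln 0.25) and none fell, but the median over the 13 was -0.00079. Of 12 fibroblast markers 4 fell (Col3a1 -0.81, Pi16 -0.67, Mfap5 -0.66 and Col1a2 -0.63) and none rose, with a median of -0.15 over the 12. Their part in the transferase values was not tested.

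Beside the set, Oplah (0.44) and Ggct (0.33) rose among the 15 genes of glutathione transport and breakdown and none fell. Msrb2 (0.34) and Txndc12 (0.28) rose and nucleoredoxin, Nxn (-0.36), fell among the 17 thiol partners. Cbr1 (0.18), Aox1 (0.28) and Ephx1 (0.33) rose among the 24 NRF2-related genes. Idh2 (0.28) and Aldh1l1 (0.58) rose among the 9 NADPH genes, Slc39a1 (-0.21) fell among the 12 zinc genes and no selenium gene was called. Of 14 glucocorticoid and stress genes 3 rose: Tsc22d3 (0.45), Klf9 (0.32) and Per1 (0.55).

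The same antibody comparison in the nontransgenic line gave 6 genes higher and 4 lower in FVB FG-3149 than in FVB IgG ventricles. These 10 calls are 20.8% of the set, beside 9.0% of all genes (4.43% higher and 4.57% lower). By limma 14 of the 48 had an unadjusted p under 0.05, beside 2780 of all 12394 genes. The higher genes were Nqo1, Sod2, Txn2, Gsr, Prdx3 and Gss, and the lower ones Gpx3, Mgst1, Mt2 and Gpx7. With the mean of all probe sets of each gene there were 7 calls, 5 higher and 2 lower. No member had arrays that separated completely, as 0.234% of all genes did. Every one of the 10 calls was lost without the 10 arrays with high atrial genes, 5 of which are FVB IgG arrays, and likewise with the adipocyte or the atrial marker mean as a covariate. Leaving out FVB IgG replicate 2 or FVB FG-3149 replicate 6 alone gave 5 calls, and FVB IgG replicate 1, 3 or 9 or FVB FG-3149 replicate 12 alone gave 6.

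Nqo1, the quinone reductase used as a marker of NRF2 activity, ran from 0.01 to 0.54 (median 0.18) in FVB FG-3149 ventricles, against -1.28 to 0.15 (median -0.22) in FVB IgG ventricles (0.46 ± 0.11, adjusted p = 0.00537). All 12 FVB FG-3149 arrays were above the FVB IgG median. Without the high-atrial arrays Nqo1 was 0.19 (adjusted p = 0.365). Sod2 ran from 0.25 to 0.91 (median 0.42) in FVB FG-3149 arrays, against -0.51 to 0.48 (median 0.24) in FVB IgG arrays (0.31 ± 0.10, adjusted p = 0.0373), and Txn2 from 0.00 to 0.62 (median 0.44) in FVB FG-3149 arrays, against -0.22 to 0.37 (median 0.05) in FVB IgG arrays (0.29 ± 0.07, adjusted p = 0.0103). Gsr, Prdx3 and Gss rose by 0.28 ± 0.09, 0.20 ± 0.05 and 0.20 ± 0.07. The Gsr and Gss calls each ended without any 1 of 24 arrays, and that of Sod2 without any 1 of 9. Without the high-atrial arrays Sod2 was 0.15, Txn2 0.25 and Prdx3 0.20, each short of the threshold.

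Of the genes that were lower, Gpx3 ran from -1.33 to -0.67 (median -0.88) in FVB FG-3149, against -1.14 to 1.76 (median -0.43) in FVB IgG ventricles (-0.84 ± 0.21, adjusted p = 0.00817). Every FVB FG-3149 array was below the FVB IgG median. Without the high-atrial arrays, which include the 4 highest FVB IgG values of Gpx3, the difference was -0.23 (adjusted p = 0.612). Mgst1 ran from -0.26 to 0.42 (median -0.03) in FVB FG-3149 arrays, against -0.19 to 1.04 (median 0.48) in FVB IgG arrays (-0.44 ± 0.14, adjusted p = 0.0335). Mt2 ran from -0.51 to 0.61 (median 0.14) in FVB FG-3149 arrays, against -0.06 to 1.18 (median 0.51) in FVB IgG arrays (-0.40 ± 0.13, adjusted p = 0.0478), and Mt1, at -0.54 ± 0.27, did not pass (adjusted p = 0.226). The Mt2 call ended without any 1 of 22 arrays and that of Mgst1 without any 1 of 6. Gpx7 was at -0.33 ± 0.09, adjusted p = 0.0174.

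Markers of other tissue fell in the same comparison: 5 of 7 adipocyte markers (Car3 -2.36, Adipoq -2.25), 6 of 7 atrial markers (Myl7 -5.01, Sln -4.92), 4 of 12 fibroblast markers and 2 of 11 macrophage markers, and none rose. The mean of the atrial genes Sln, Myl7 and Myl4 ran from -2.97 to 4.40 in FVB FG-3149 arrays, against -1.16 to 8.47 in FVB IgG arrays. Of the related lists, Glo1 (0.29) rose and Chac1 (-0.36) fell among the glutathione genes, Glrx (0.46) rose and Tmx1 (-0.37) and Glrx2 (-0.19) fell among the thiol partners. Taldo1 (0.17) rose and Tkt (-0.54) and Ugdh (-0.35) fell among the NRF2-related genes, Idh2 (0.23) rose and Slc39a1 (-0.19) fell.

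Under FG-3149 the transgene was compared with the background strain in groups of 12 with fewer of the arrays that stood apart. In PKCε FG-3149 ventricles 18 of the 48 genes fell and 5 rose relative to FVB FG-3149 ventricles. These 23 calls are 47.9% of the set, beside 47.0% of all genes (21.5% higher and 25.5% lower), so the share is near that of all genes. The median difference was -0.16, beside -0.05 over all genes. Every PKCε FG-3149 array was below every FVB FG-3149 array for Gsta4, Gstk1, Prdx3 and Sod2, and above for Gpx3 and Gpx7. Arrays did not overlap in 5.25% of all genes (2.69% above and 2.56% below). Without the high-atrial arrays 27 genes were called, and without the high-lung arrays 23.

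Gpx3 gave the largest difference. It ran from -0.22 to 1.02 (median 0.26) in PKCε FG-3149, against -1.33 to -0.67 (median -0.88) in FVB FG-3149 ventricles (1.24 ± 0.20, adjusted p = 3.08e-06), a level 2.36-fold higher. Gpx7 ran from -0.20 to 0.55 (median 0.27) in PKCε FG-3149 arrays, against -0.79 to -0.23 (median -0.45) in FVB FG-3149 arrays (0.71 ± 0.09, adjusted p = 1.08e-08). The extracellular dismutase Sod3 ran from -0.19 to 1.16 (median 0.05) in PKCε FG-3149 arrays, against -0.50 to 0.14 (median -0.18) in FVB FG-3149 arrays (0.42 ± 0.14, adjusted p = 0.0103), but its second probe set gave -0.12. Gstt2 and Gstt3 rose by 0.34 ± 0.10 and 0.37 ± 0.10. All 12 fibroblast markers rose in this comparison, with their mean between -0.06 and 0.82 in PKCε FG-3149, against -1.01 to -0.42 in FVB FG-3149 arrays.

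The genes that fell furthest under FG-3149 were Mt1, Gstk1 and Gstm7. Mt1 ran from -2.04 to 0.71 (median -0.87) in PKCε FG-3149, against -1.24 to 1.11 (median 0.15) in FVB FG-3149 ventricles, with wide overlap (-0.93 ± 0.25, adjusted p = 0.00305). Gstk1 ran from -0.80 to -0.04 (median -0.57) in PKCε FG-3149 arrays, against 0.24 to 0.56 (median 0.48) in FVB FG-3149 arrays (-0.90 ± 0.10, adjusted p = 2.65e-09), and Gstm7 from -0.58 to 0.04 (median -0.13) in PKCε FG-3149 arrays, against -0.08 to 0.83 (median 0.39) in FVB FG-3149 arrays (-0.62 ± 0.10, adjusted p = 1.89e-06). Sod2 and Prdx3 fell by 0.61 ± 0.09 and 0.40 ± 0.05 on the log2 scale, and Txnrd2 and Txn2 by 0.54 ± 0.10 and 0.42 ± 0.07. The other called genes were Gsta4 (-0.59), Gstm2 (-0.59), Gsta2 (-0.55), Mt2 (-0.33), Gstz1 (-0.32), Gpx2 (-0.29), Gstm5 (-0.27), Gstm1 (-0.25), Gss (-0.22), Gstm3 (-0.19) and Prdx2 (-0.16), all lower. Of the genes called under IgG, 8 did not pass here: Gstt1 (-0.17), Mgst1 (-0.15), Mgst2 (-0.17), Txnrd1 (0.00), Gstm6 (0.03), Gstp1 (-0.08), Gpx8 (0.19) and Gpx4 (-0.06). For Gpx4, higher under IgG, 10 of 12 PKCε FG-3149 arrays were below the FVB FG-3149 median.

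In the related lists the counts under FG-3149 were 3 higher and 5 lower of 15 for glutathione transport and breakdown (Hagh -0.52, Oplah -0.58), 5 higher and 7 lower of 17 for the thiol partners (Msra -0.63, Glrx -0.76), and 10 higher and 5 lower of 24 for NRF2-related genes (Ephx1 0.72, Me1 -0.58). NADPH supply had 2 higher and 4 lower of 9, zinc genes 3 and 3 of 12, selenium genes 3 and 1 of 12, and glucocorticoid and stress genes 0 and 3 of 14. Of 13 cardiomyocyte markers 1 rose and 6 fell.

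Whether FG-3149 acted differently in the lines was tested as an interaction, the antibody effect in PKCε minus that in FVB. Only 3 of the 48 genes were called, 2 higher and 1 lower, 6.25% of the set beside 3.86% of all genes (2.09% higher and 1.78% lower). By limma 13 of the 48 had an unadjusted p under 0.05, beside 2008 of all 12394 genes. Gstm1 averaged -0.09 ± 0.27 (SD, n = 12) in PKCε FG-3149 and -0.56 ± 0.11 (n = 10) in PKCε IgG ventricles, and 0.16 ± 0.14 (n = 12) in FVB FG-3149 and 0.13 ± 0.27 (n = 10) in FVB IgG ventricles. Its interaction was 0.41 ± 0.12, adjusted p = 0.0406, with antibody effects of 0.47 in PKCε and 0.06 in FVB. For Gstt2 the antibody effects were 0.43 and -0.10, and the interaction was 0.54 ± 0.16, adjusted p = 0.0406. FVB FG-3149 arrays ran from -0.68 to 0.68 (median -0.10) and FVB IgG arrays from -0.15 to 0.59 (median 0.02) for this gene.

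Gss went the other way, at -0.35 ± 0.09, adjusted p = 0.02. It ran from -0.37 to 0.19 (median -0.16) in PKCε FG-3149, against -0.13 to 0.17 (median 0.08) in PKCε IgG ventricles (antibody effect -0.15), and from -0.07 to 0.30 (median 0.10) in FVB FG-3149, against -0.36 to 0.12 (median -0.14) in FVB IgG ventricles (antibody effect 0.20). Gss kept its call when each array was left out in turn, whereas Gstm1 and Gstt2 lost theirs without any 1 of 21 and 22 arrays. The count was 1 of 48 without any single one of PKCε FG-3149 replicates 9, 11 and 12, PKCε IgG replicates 3, 7 and 9, FVB FG-3149 replicate 6 and FVB IgG replicate 2. The other 3 Gstm1 probe sets gave interactions of 0.15, 0.32 and 0.43. None of the 3 genes was called without the high-atrial arrays, where Gss was -0.34, Gstm1 0.29 and Gstt2 0.57, and 1 was called without the high-lung arrays. Mt2 (0.61 ± 0.19, adjusted p = 0.0531) and Gstk1 (0.49 ± 0.15, adjusted p = 0.0631) did not pass. Of the lists, 2 of 7 adipocyte markers gave a higher antibody effect in PKCε (Car3 2.45 and Adipoq 2.51), as did Ephx1 (0.52), Tkt (0.51), Glrx2 (0.29) and Myh6 (0.65), and Slc30a4 (-0.26) gave a lower one.

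**Figure D5:**
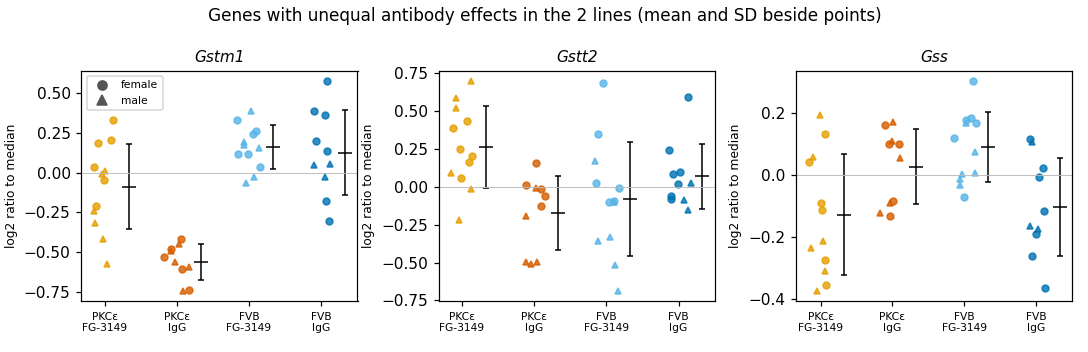
Log2 ratio of Gstm1, Gstt2 and Gss on each array, by group from left to right PKCε FG-3149, PKCε IgG, FVB FG-3149 and FVB IgG, with circles for females, triangles for males and the mean ± SD beside the points. Gstm1 and Gstt2 are higher with FG-3149 in the PKCε line (by 0.47 and 0.43) and differ by 0.06 and -0.10 in FVB, and Gss is higher with FG-3149 in FVB (by 0.20).

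Sex was a term of every fit, and its own effect, female over male across all groups, was called for 11 of the 48 genes (22.9%, beside 15.8% of all genes), 9 higher in females (8.67% of all genes) and 2 lower (7.12%). By limma 25 of the 48 had an unadjusted p under 0.05, beside 4058 of all 12394 genes. All 44 sex labels were used as given, and without the array labelled female with a high Uty the count was again 11. Without the high-atrial arrays it was 7, and without the high-lung arrays 7, beside 1174 and 1482 of all genes, against 1956 with all 44 arrays. Both metallothioneins were higher in females: Mt1 by 0.96 ± 0.19, adjusted p = 5.49e-04, and Mt2 by 0.40 ± 0.09, adjusted p = 0.00297. In PKCε FG-3149 ventricles Mt1 averaged -0.44 ± 0.70 in females and -1.08 ± 0.87 in males (SD, n = 6 each), and in FVB FG-3149 ventricles 0.53 ± 0.38 in females and -0.19 ± 0.63 in males (n = 6 each). In PKCε IgG ventricles it averaged -0.34 ± 0.82 in females and -1.80 ± 0.36 in males (n = 5 each), and in FVB IgG ventricles 1.26 ± 0.55 in females and 0.07 ± 0.70 in males (n = 7 and 3). The peroxidases Gpx3 (0.51 ± 0.15), Gpx8 (0.33 ± 0.07) and Gpx7 (0.27 ± 0.06), the transferases Gstm2 (0.29 ± 0.04), Gstt2 (0.24 ± 0.08) and Gstm5 (0.21 ± 0.05), and Sod1 (0.12 ± 0.04) were also higher in females. Gsta4 (-0.17 ± 0.06) and Gpx5 (-0.07 ± 0.02) were lower. The Sod1 call (adjusted p = 0.0475) ended without any 1 of 29 arrays, that of Gpx5 (adjusted p = 0.0364) without any 1 of 8 and that of Gstt2 (adjusted p = 0.0342) without any 1 of 7.

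Adipocyte markers (3 of 7 higher), fibroblast markers (6 of 12 higher), macrophage markers (6 of 11 higher) and liver markers (3 of 6 higher) moved with sex as well. With the adipocyte marker mean as a covariate 2 of the 11 calls were left, Gstm2 (0.21) and Gsta4 (-0.28), and Mt1 was 0.79 (adjusted p = 0.0674). Over all genes 415 were called with this covariate, against 1956 without it. Of the 24 NRF2-related genes 9 were higher in females and none lower, led by Ephx1 (0.51), and of the glutathione transport genes 4 were higher and 2 lower. The glucocorticoid and stress genes gave 3 higher (Per1 0.60) and 1 lower (Angptl4 -0.77) of 14. No member was called by limma for a difference in the transgene effect between the sexes, beside 0.0807% of all genes. None was called for a difference in the PKCε antibody effect, beside 0.0161% of all genes. At an unadjusted p under 0.05 limma passed 3 of the 48 for the transgene effect, beside 1066 of all 12394 genes. For the PKCε antibody effect it passed 5 of the 48, beside 991 of all genes. The 3 were Gsta3 (-0.69), Gsta4 (-0.39) and Gstk1 (-0.62), and the 5 were Gstk1 (0.55), Txn2 (0.38), Gsta4 (0.31), Prdx2 (0.28) and Mt2 (-0.60).

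A set of 8 pairs of members that share a function or a locus was compared across the 44 arrays after each gene's group and sex means were removed. Differences between arrays in atrial, lung and adipocyte markers and in the Gapdh measure were not removed. Their part in the correlations was not tested, and no other gene pairs were compared. Gstm1 and Gstm2 varied together (r = 0.79 and rho = 0.80, adjusted permutation p = 8.00e-05 and 4.00e-05), with r = 0.66 in the PKCε and 0.88 in the FVB line (22 arrays each), and cross-hybridisation between them was not tested. Gclc and Gclm, subunits of 1 enzyme, gave r = 0.57 and rho = 0.61, adjusted permutation p = 2.00e-04 and 4.00e-05, with 0.79 in PKCε and 0.35 in FVB. For Prdx3 and Txn2 the values were r = 0.51 and rho = 0.50, adjusted permutation p = 5.80e-04 and 0.00152 (0.31 in PKCε and 0.73 in FVB), and for Mt1 and Mt2 r = 0.45 and rho = 0.42, adjusted permutation p = 0.00373 and 0.00822 (0.44 and 0.46). The peroxide-removing enzymes Gpx1 and Cat varied oppositely (r = -0.53 and rho = -0.51, adjusted permutation p = 5.80e-04 and 0.00123), with -0.41 in PKCε and -0.66 in FVB. Without the 2 arrays farthest from the median of the first gene, these 5 values of r were 0.75, 0.57, 0.48, 0.47 and -0.62. Gsta3 with Gsta4, Txnrd1 with Srxn1 and Sod1 with Sod2 had r of -0.07, 0.09 and -0.12, none past the threshold (adjusted permutation p of 0.658, 0.658 and 0.558).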

How the data were processed

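Left ventricle RNA of 44 mice was measured on 1 Affymetrix 430A 2.0 array each, from 250 ng of RNA. The deposited values are linear ratios: the authors applied GCRMA (version not given) and median normalization per gene in GeneSpring GX 7.3.1, per the submitters' processing notes. Brightness and detection are no longer in the ratios, so how far a signal stood above background is unknown, and precision rests on the number of arrays. The ratios started at 0.01, where 25 values stood, none of a member. Array medians ran from 0.954 to 1.032. The genome build and scan batches were not given in the sources used here.

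Log2 of each ratio was taken. Of 22690 probe sets 20393 named 1 gene, 691 several and 1606 none. Each gene was represented by its most variable probe set (largest SD), which left 12394 genes. Members had 78 probe sets, and 22 members had several. A further 6 probe sets shared between a member family and another gene were not used. Linear models with 4 group means and a term for sex were fitted to all genes with limma 3.58.1 in R 4.3.3, with Benjamini-Hochberg adjusted p-values over all genes. Means of the 8 combinations of group and sex gave the sex interactions. The steps were tested on simulated data. Pair correlations used 100000 permutations (Python 3.11.15, scipy 1.17.1). Replicates are separate mice. Arrays with the same replicate number did not deviate together: of 60 pairs across groups 13 had a correlation over 0.1 (median -0.05). Mouse numbers ran from 38 to 191 in PKCε FG-3149 and from 192 to 362 in PKCε IgG. In FVB FG-3149 they ran from 338 to 349 and in FVB IgG from 420 to 443. What the numbers follow is not given, and an effect of their order cannot be told apart from the groups. Every member could be named, and ranges over the arrays are given for the 3 called members that moved furthest in each direction, and of each related or marker list for up to 4 genes with the lowest p. Members and lists were chosen with earlier results of these data known. Promoters are RefSeq's, on GRCm38.p6.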

Additional observations from a re-analysis of the deposited data

Results flagged for a closer look

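Single arrays far from the rest of their group, by the gap to the nearest array over the group's range, were found in 8 of the 96 groups of 10 arrays tested (48 genes in each IgG group), where chance gives about 1 in 20. In PKCε IgG, Txnrd2 was lowest in replicate 10 (-1.291) and Gstp3 (0.2822) and Sod1 (0.3042) were highest there, and Sod3 was highest in replicate 9 (1.208). These are the 2 arrays with high lung genes, and the part of lung RNA in these values was not tested. Gstm5 was highest in PKCε IgG replicate 7 (0.1106). In FVB IgG, Gpx4 was lowest (-0.6404) and Gstt2 highest (0.5888) in replicate 2, and Gpx6 was highest in replicate 9 (0.602). Both are among the arrays with high atrial genes.

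The antibody effect differed between the lines in 3 genes by limma's interaction test: it was lower in PKCε than in FVB for Gss (-0.35491, adjusted p = 0.02) and higher for Gstm1 (0.41153, adjusted p = 0.0406) and Gstt2 (0.53509, adjusted p = 0.0406). Without the arrays with high atrial genes, 10 fewer in the fit, Gss was at -0.34, Gstm1 at 0.29 and Gstt2 at 0.57, and none was past the threshold.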

How the results depend on the processing

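The 48 genes were counted again under up to 19 other settings and with each array left out. No call of a named gene changed sign. Between PKCε IgG and FVB IgG ventricles 25 calls became 16 in males alone and stayed between 17 and 27 otherwise (23 to 28 with 1 array left out), and between PKCε FG-3149 and FVB FG-3149 ventricles 23 became 16 to 27. For PKCε FG-3149 against PKCε IgG ventricles, 9 became 5 with the Gapdh covariate, 4 after quantile normalization, 0 in males alone, 5 in females alone, 5 without the high-atrial arrays, 3 without the high-lung arrays and 4 at an adjusted p under 0.01, and 5 to 10 with 1 array left out. For FVB FG-3149 against FVB IgG ventricles, 10 became 0 with the adipocyte or the atrial covariate and without the high-atrial arrays, 6 after quantile normalization, 0 in males alone, 3 in females alone and 2 at 0.01. With 1 array left out it was 5 to 11, with 5 or 6 without FVB IgG replicate 1, 2, 3 or 9 or FVB FG-3149 replicate 6 or 12. For the difference between the lines, 3 became 0 with the adipocyte or the atrial covariate, in males alone, in females alone, without the high-atrial arrays and at 0.01. It became 1 after array medians were set to 0, after quantile normalization (0 higher and 1 lower, against 2 and 1) and without the high-lung arrays, and 1 to 4 with 1 array left out. Female against male gave 11, and 2 with the adipocyte covariate, 7 without the high-atrial arrays, 7 without the high-lung arrays and 6 at 0.01, with 9 higher and 0 lower after either rescaling, against 9 and 2. Both sex interactions stayed at 0. The counts over all genes moved as well. For PKCε FG-3149 against PKCε IgG they went from 1093 to 57 in males alone and 726 after quantile normalization. For FVB FG-3149 against FVB IgG they went from 1116 to 57 in males alone and 188 with the adipocyte covariate. For the difference between the lines they went from 479 to 37 in males alone and 110 in females alone. Why these counts moved was not tested, except that fewer arrays enter the fits within 1 sex or without some arrays. With the replicate number as a block, FVB FG-3149 against FVB IgG gave 6 calls and no other count moved by over 1.5 times; same-numbered arrays are not pairs in this design. Without FVB FG-3149 replicate 11 the counts were 25, 23, 9, 8, 2 and 11 in the order given.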
